A study of Mus musculus with 21 samples.

Results

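The mitochondrial ribosome is built from proteins encoded in the nucleus, and the genes described here are those that the array's annotation names Mrpl or Mrps followed by a number, for the large and the small subunit. The array carried 132 such probes for 76 genes. A probe was kept when its detection p-value was under 0.05 on at least 3 of the 21 arrays, which left 115 probes and 73 genes, among 11649 genes tested in all. Of the 73 genes, 48 code for the large subunit and 25 for the small one, with Mrps18a and Mrps30 counted in the large subunit, where their proteins sit in mammals. In 72 of the 73 genes the probe used was detected on all 21 arrays. The exception and nearest to the limit was Mrpl45, detected on 19, while the nearest gene outside was Mrps14, detected on 1, and Mrpl19 and Mrpl32 were detected on 0.

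RNA was measured on one-colour Illumina bead arrays in 7 groups of 3 samples. Naive embryonic stem cells spent 2 days in activin A and FGF2 to become epiblast-like cells (EpiLC), in the wild-type line E14Tg2a (WT), in a line that carries Otx2GFP/lacZ in place of both normal Otx2 alleles (Otx2-/-), and in a line with that genotype and no Blimp1 (Otx2-/-; Blimp1-/-). Aggregates of EpiLC of each line were grown for 6 days with BMP4, LIF, BMP8a, SCF and EGF, and the SSEA1 and CD61 positive cells were sorted as primordial germ cell-like cells (PGCLC). The last group was sorted the same way from Otx2-/- aggregates kept for 6 days in basal medium with no cytokines. The series compares the programmes of the 3 lines during this induction. Each genotype was 1 cell line, and the labels number the replicates without saying whether they were separate cultures, so the spread behind each p-value is that between these samples and may be technical.

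The mitochondrial ribosome translates the few messages of the mitochondrial genome, all of them for subunits of the respiratory chain (ATP synthase included, here and below). Its RNA comes from the mitochondrial genome, but its proteins are made in the cytosol and imported, so that assembly needs both genomes. Part of the proteins descend from bacterial ribosomal proteins and part were added in mitochondria. Primordial germ cells and the naive and primed states of pluripotency are known to differ in how far they rely on respiration and glycolysis.

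Facts of the arrays come first, since they touch the results. Between 14088 and 15861 probes were detected per EpiLC array, 17527 to 19556 on the day-6 arrays of the WT and Otx2-/- lines, and 15961 to 16507 in Otx2-/-; Blimp1-/- PGCLC. Of 7 germ cell markers, Prdm1 had no kept probe, and the other 6 rose in WT and in Otx2-/- PGCLC, while 4 rose and 1 fell in Otx2-/-; Blimp1-/- PGCLC. The 4 EpiLC markers fell in every line. Of the sort's antigens, CD61 is encoded by Itgb3, whose probe was not called in any induction. SSEA1 is a carbohydrate that no probe reads. Fut4, a fucosyltransferase that can make it, rose in WT induction (0.48, adjusted p = 0.0203) and was not called in the others. The first principal component of all tested genes held 63.9% of the variance. On it the EpiLC arrays lay between −73.9 and −44.7. The day-6 arrays of the WT and Otx2-/- lines lay between 55.5 and 65.8. The Otx2-/-; Blimp1-/- PGCLC arrays lay in the middle, at −2.71 to 3.65. On the second principal component the Otx2-/-; Blimp1-/- PGCLC arrays stood apart, at 56.6 to 61.7, while the other 18 arrays lay between −24.5 and 13.1. The Otx2 probe read 10.98 ± 0.24 in WT EpiLC and 11.36 ± 0.10 in Otx2-/- EpiLC (mean ± SD of log2 signal, n = 3), and whether it lies in the replaced part of the gene is not given in the sources used here, so it does not check the genotype. In the deposited intensity table the column of Otx2-/- PGCLC replicate 2 stood in another probe order and was re-ordered by the ranks of the authors' normalized column before use. Without that array, the counts of called members given for the Otx2-/- induction and for the comparison with Otx2-/-; Blimp1-/- PGCLC differed by no more than 1.5 times from those with it. Other counts moved further without it. For Otx2-/- against WT PGCLC they fell from 7 to 2 higher and from 5 to 2 lower. For cells without against with cytokines the lower calls fell from 4 to 1.

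During WT induction the mitochondrial ribosomal protein genes fell together. Of the 73 genes, 57 were lower in PGCLC than in EpiLC at an adjusted p under 0.05, 2 were higher and 14 were not called. Over all tested genes 27.4% were called lower and 35.4% higher. The median change of the members was −1.07 on the log2 scale, a 2.10-fold lower signal, against 0.06 over all tested genes. In 39 of the 57 the fall was at least 2-fold. Changes of at least 2-fold, here and below, were not counted over all tested genes. The arrays of the 2 groups did not overlap for 56 members that were lower and 4 that were higher, against 29.3% and 37% of all tested genes. In bulk samples, less RNA per cell and fewer cells that carry it cannot be told apart.

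Markers of other states moved with this fall. The summed signal (log2 of the sum) of 6 naive pluripotency markers lay between 9.13 and 9.28 in WT EpiLC and between 14.80 and 15.11 in WT PGCLC, and all 6 rose. That of 4 trophoblast markers lay between 9.37 and 9.59 and between 10.54 and 11.33, and 3 rose, with Gata3 and Tead4 not detected in EpiLC. That of the 3 measured of 5 mesoderm markers lay between 6.22 and 6.47 and between 8.71 and 8.87, and 2 rose, with Kdr not detected in PGCLC. In Otx2-/- PGCLC the trophoblast sum was 8.08 to 8.38 and the mesoderm sum 6.40 to 6.64, not above their ranges in Otx2-/- EpiLC of 8.46 to 8.75 and 6.26 to 6.69. The part of these markers in the members' fall was not tested.

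**Figure D1:**
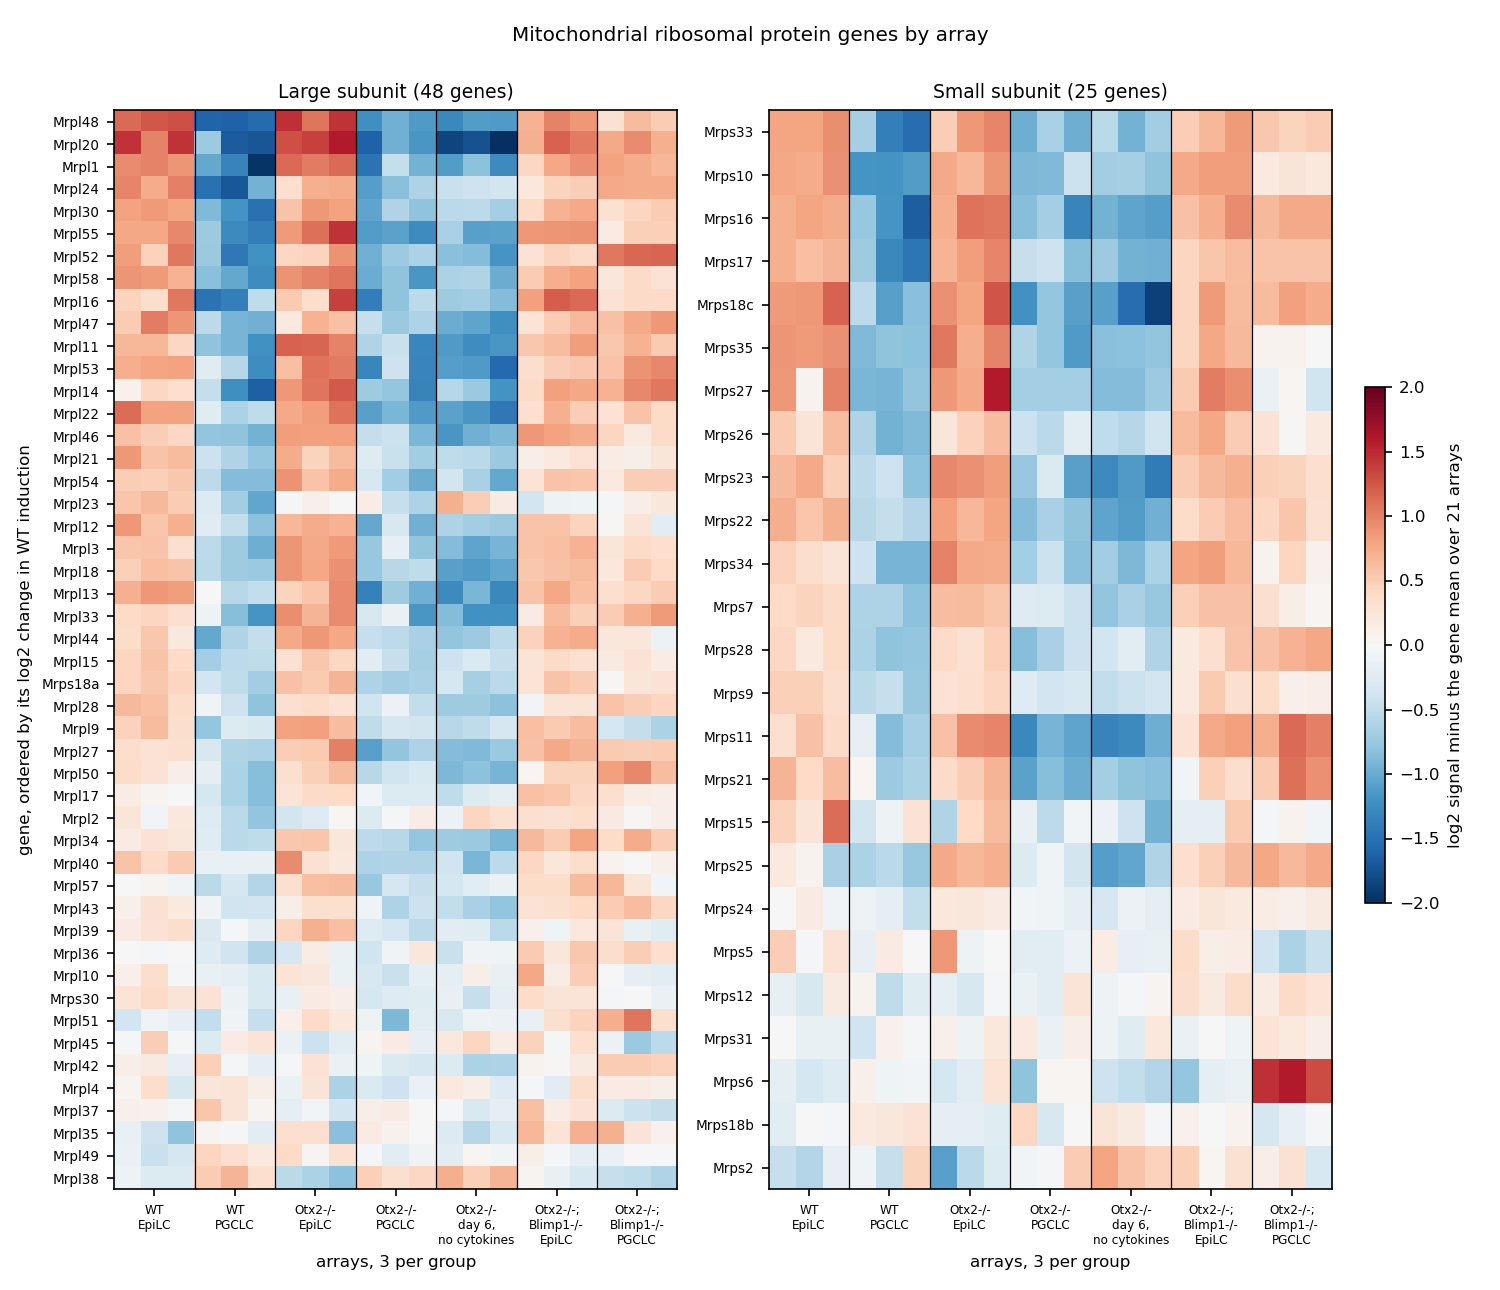
Heat map of the 73 genes (rows, ordered by their log2 change in WT induction) on the 21 arrays (columns, 3 per group). Colour gives the log2 signal minus the mean of the gene over all arrays, from −2 (blue) to 2 (red). Most genes are red in the EpiLC groups, blue in the day-6 groups of the WT and Otx2-/- lines, and pale red in Otx2-/-; Blimp1-/- PGCLC.

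In the large subunit 39 of 48 genes fell and 2 rose, with a median of −1.06. Among the probes used, 1 per gene, the largest fall was that of Mrpl48, which has no bacterial counterpart. Its log2 signal was 11.15, 11.26 and 11.30 in WT EpiLC and 8.42, 8.39 and 8.48 in WT PGCLC. The groups lay far apart, with a change of −2.81 ± 0.14 (SE, n = 3 against 3; adjusted p = 1.07e-13, limma). Mrpl20, whose bacterial counterpart is needed for early assembly of the large subunit in Escherichia coli, read 11.47, 11.01 and 11.48 in EpiLC and 9.31, 8.36 and 8.32 in PGCLC. Replicate 1 was the highest of the PGCLC arrays but lay below every EpiLC array, and the change was −2.66 ± 0.22 (adjusted p = 3.9e-10). Mrpl1, the counterpart of the protein of the stalk through which spent tRNA leaves, changed by −2.39 ± 0.22 (adjusted p = 2.07e-09). Mrpl24, whose bacterial counterpart starts assembly of that subunit and lies near the exit of the peptide tunnel, changed by −2.29 ± 0.17 (adjusted p = 9e-11).

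The proteins of the factor-binding stalk were measured as well. Mrpl12, the stalk protein that recruits translation factors, read 12.97, 12.65 and 12.81 in WT EpiLC and 11.86, 11.63 and 11.29 in PGCLC. All PGCLC arrays lay below all EpiLC arrays, and the change was −1.22 ± 0.18 (adjusted p = 2.09e-06). Mrpl11, at the base of the stalk, changed by −1.56 ± 0.18 (adjusted p = 4.78e-08). Mrpl10, which joins the stalk to the ribosome, did not pass the test, with a change of −0.36 ± 0.16 (adjusted p = 0.061). Mrpl58, a peptidyl-tRNA hydrolase that became a fixed part of the large subunit, fell by 1.85 on the log2 scale (adjusted p = 2.48e-10). Mrpl44, a protein related to RNase III, fell by 1.07 (adjusted p = 1.81e-06). Mrpl45, which in mammals holds the ribosome at the inner membrane, was the dimmest member by arrays detected and was not called, with a change of −0.08 ± 0.19 (adjusted p = 0.736).

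In the small subunit 18 of 25 genes fell and 0 were called higher, with a median of −1.07. In limma 0 of the 25 were higher at an unadjusted p under 0.05 as well. Mrps33, which has no bacterial counterpart, changed by −2.02 ± 0.19 (adjusted p = 2.19e-09). Mrps16, mutated in a human respiratory chain disorder, read 11.89, 11.97 and 11.91 in WT EpiLC and 10.42, 10.00 and 9.52 in PGCLC. The PGCLC arrays were spread more widely than the EpiLC arrays, but the groups did not overlap, and the change was −1.94 ± 0.19 (adjusted p = 4.16e-09). Mrps12, the counterpart of the decoding-centre protein S12, did not pass the test, with a change of −0.12 ± 0.16 (adjusted p = 0.536).

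Mammals have 3 proteins related to bacterial S18, and the values of their genes were not alike. In the naming of ribosomal proteins by descent only Mrps18c keeps the bacterial name, so that the other two are counted here as without a bacterial counterpart. Mrps18c read 11.17, 11.20 and 11.50 in WT EpiLC and 9.81, 9.24 and 9.50 in PGCLC, with no overlap between the groups and a change of −1.78 ± 0.19 (adjusted p = 3e-08). Mrps18a fell by 1.00 ± 0.13 (adjusted p = 7.09e-07). Mrps18b read 11.61, 11.82 and 11.78 in EpiLC and 12.01, 12.05 and 12.10 in PGCLC. Its PGCLC arrays all lay above its EpiLC arrays, yet the change of 0.31 ± 0.15 did not pass the test (adjusted p = 0.081), and 2 further probes of Mrps18b were called lower.

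The fall covered members with and without a bacterial counterpart. Of the 43 genes with one, 35 were lower and 0 were called higher by limma (0 at an unadjusted p under 0.05), with a median of −1.09. Of the 30 without one, 22 were lower and 2 higher, with a median of −0.91. The difference between these classes was not tested.

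Members that did not fall were examined probe by probe. The probe used for Mrpl38 read 11.56, 11.39 and 11.38 in WT EpiLC and 12.18, 12.34 and 11.99 in PGCLC. It rose on every PGCLC array, by 0.72 ± 0.14 (adjusted p = 7.27e-05), but the other kept probe of Mrpl38 changed by −3.35 and was called lower. For Mrpl49 the probe used rose by 0.63 ± 0.14 (adjusted p = 0.000356), while 2 of its 4 probes were called lower and the lowest changed by −2.28. Of 7 probes of Mrpl15, 6 were lower and 1 was higher, between −2.40 and 0.80. Both calls of a higher signal in WT induction therefore depend on which probe stands for the gene.

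The 16 members that were not lower included 9 with several kept probes, and in 7 of these another probe was called lower. Counting a gene as lower when any of its probes was, 64 of the 73 genes were lower. This rule can only add lower calls, and it takes in Mrpl38 and Mrpl49, whose probes used were called higher. It was not counted over all tested genes, nor for higher calls. Of the 28 genes with several kept probes, 18 had the same call for all of them and 3 had opposite calls. The array annotation does not say which transcripts each probe reads, and that part in the disagreement was not tested.

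**Figure D2:**
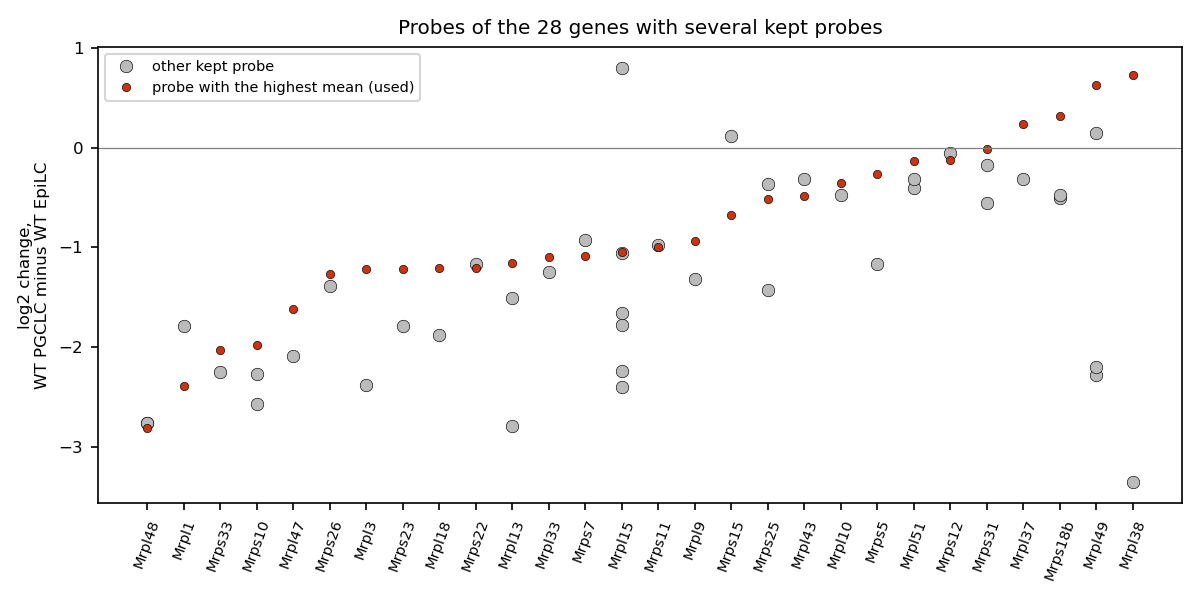
Change of each kept probe in WT induction (y axis, log2) for the 28 genes with several kept probes (x axis, ordered by the probe used). Red points are the probe with the highest mean signal, which stands for the gene, and grey points are the other probes. For Mrpl38 the probe used lies at 0.72 and the other probe at −3.35, while for Mrpl48 the probes lie between −2.81 and −2.76.

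The members are shorter and brighter than most genes, and gene length moved with the change of other genes. The members span a median of 7.75 kb of the genome against 21.5 kb for all tested genes, and 31 of the 73 lie in the shortest quintile. Other genes in the shortest quintile had a median change of −0.15 in WT induction, and those in the longest quintile 0.33. The members in these quintiles had medians of −1.09 and −1.30, the latter over 2 genes. The 60 members in the brightest quintile had a median of −1.09, while other genes of that quintile had 0.05, with 37.6% of them lower and 40% higher. Of the other genes in the dimmest quintile 7.12% were lower and 19.1% higher, with a median of 0.02. The quintiles between had medians of 0.06, 0.17 and 0.17. The share called lower rose from each quintile to the next brighter one, while the share called higher was largest in the second brightest, at 43.8%. With the change corrected for gene span, the median member fell by 1.00. More probes were detected on day-6 than on EpiLC arrays, and the part of that difference in the falls was not tested.

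Because the members move together, their promoters are described here. Windows from 250 bases before to 50 bases after the transcription start, from RefSeq on build GRCm38.p6, were found for 65 of the 73 genes. No promoter was matched for Mrps35, Mrpl15, Mrpl54, Mrpl13, Mrpl38, Mrps28, Mrps34 and Mrpl4. Motifs were searched as exact letters on both strands. The ETS motif CCGGAAG, the core bound by GABPA (also called NRF-2), was in 26 members (40.0%) and in 9.93% of all 27025 genes with a window. Those 27025 genes were not limited to the genes tested on the arrays, and motif shares among tested genes were not counted. The NRF1 motif, GCGCA and GCGC with 1 free base between them, was in 12 members (18.5%) and in 5.19% of all genes, and the YY1 motif AAGATGGC in 11 members (16.9%) and in 3.19% of all. In 34 members there was an ETS or an NRF1 motif, and in 4 both. The E-box CACGTG was in 5 members (7.69%, against 8.09% of all genes), the CRE TGACGTCA in 2 (3.08% against 2.03%) and the TATA box TATAAA in 5 (7.69% against 15.7%). A match describes letters only and is not evidence of a bound site. Of the 51 matched members that fell in WT induction, 23 held the ETS motif and 11 the NRF1 motif, against 3 and 1 of the 14 that did not fall. The YY1 motif was split the other way, in 5 of the 51 and 6 of the 14. These differences were not tested. GABPA, NRF1 and YY1 are known regulators of nuclear genes for mitochondria.

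The 120 bases before the start are printed for 3 members with an ETS motif and 3 with an NRF1 motif, chosen because they hold a match, 5′ to 3′ on the strand of the gene, with the motif in capitals. CTTCCGG is the ETS motif read on the opposite strand.
Mrpl48 (chr7:100583131-100583250, minus strand): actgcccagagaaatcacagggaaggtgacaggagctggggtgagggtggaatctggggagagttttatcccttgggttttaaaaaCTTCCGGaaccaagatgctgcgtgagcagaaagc
Mrpl52 (chr14:54426789-54426908, plus strand): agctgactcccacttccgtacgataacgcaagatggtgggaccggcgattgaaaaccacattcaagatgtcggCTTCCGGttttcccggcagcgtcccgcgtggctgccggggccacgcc
Mrps18a (chr17:46110884-46111003, plus strand): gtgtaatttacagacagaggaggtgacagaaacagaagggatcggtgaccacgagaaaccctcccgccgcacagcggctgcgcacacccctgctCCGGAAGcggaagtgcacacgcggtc
Mrpl12 (chr11:120484517-120484636, plus strand): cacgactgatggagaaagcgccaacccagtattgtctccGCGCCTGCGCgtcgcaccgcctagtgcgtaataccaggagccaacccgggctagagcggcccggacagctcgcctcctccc
Mrpl30 (chr1:37890357-37890476, plus strand): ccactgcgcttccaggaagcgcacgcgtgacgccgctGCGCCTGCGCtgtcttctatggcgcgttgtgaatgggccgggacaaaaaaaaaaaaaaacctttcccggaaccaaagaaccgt
Mrps21 (chr3:95871515-95871634, minus strand): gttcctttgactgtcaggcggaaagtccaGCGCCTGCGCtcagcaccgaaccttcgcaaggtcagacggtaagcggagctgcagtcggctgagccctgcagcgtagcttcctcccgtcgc
In Mrpl12, Mrpl30 and Mrps21 the match is the NRF1 motif read on the opposite strand, and it begins 81, 83 and 91 bases before the start. In Mrpl48, Mrpl52 and Mrps18a the ETS match begins 34, 47 and 26 bases before the start.

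In the Otx2-/- line the fall during induction was of about the same extent. In Otx2-/- PGCLC 56 members were lower than in Otx2-/- EpiLC, 2 were higher and 15 were not called, with a median of −1.10. Over all tested genes 29.6% were lower and 35.8% higher, with a median of 0.05. The arrays of the 2 groups did not overlap for 58 members that were lower and 3 that were higher, against 29.8% and 36.9% of all tested genes. The fall was at least 2-fold in 42 of the 56. Of the 57 members lower in WT, 52 were also lower here, in comparisons that share no arrays. That is 91.2% of the WT list and 92.9% of the Otx2-/- list. Overlaps of calls, here and below, were not counted over all tested genes. Mrpl20 read 11.32, 11.39 and 11.61 in Otx2-/- EpiLC and 8.42, 9.07 and 8.87 in Otx2-/- PGCLC. All arrays were apart, and the change of −2.66 ± 0.22 (adjusted p = 3.57e-10) was the largest fall of this comparison among the probes used. Mrps2, the counterpart of a protein that bacteria need to bind messages, rose by 0.78 ± 0.23 (adjusted p = 0.00516), and the probe used for Mrpl38 rose by 1.06 ± 0.14 (adjusted p = 4.08e-07).

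Sorted day-6 cells of the Otx2-/- line grown without cytokines showed the fall as well. Against the same Otx2-/- EpiLC arrays, 55 members were lower, 4 higher and 14 not called, with a median of −1.29. Over all tested genes 30.2% were lower and 35.8% higher. Mrpl20 read 8.19, 8.29 and 7.96 in these cells, below each array of the PGCLC of that line, and its change of −3.29 ± 0.22 against EpiLC (adjusted p = 9.26e-12) was the largest over the 11 comparisons among the probes used for the 73 members. Mrps2 rose by 1.24 ± 0.23 (adjusted p = 5.36e-05), and Mrpl2, which lies near the peptidyl transferase centre, by 0.40 ± 0.17 (adjusted p = 0.041). The 4 higher calls fell to 2 without Otx2-/- EpiLC replicate 2 or without replicate 2 of these cells. Of the members lower in WT induction, 52 were lower in both day-6 groups of the Otx2-/- line, which share their EpiLC arrays.

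Few members separated cells without from cells with cytokines. Of the 73 genes 4 were lower without cytokines, 1 was higher and 68 were not called, with a median of −0.10, against 8.38% lower and 7.37% higher over all tested genes. Mrpl23, a protein at the exit of the peptide tunnel, read 12.42, 11.81 and 11.64 with cytokines and 12.98, 12.75 and 12.42 without. The highest array with cytokines met the lowest array without, and the difference was 0.76 ± 0.20 (adjusted p = 0.00849). The 4 lower genes were Mrps25 (−0.67), Mrps23 (−0.56), Mrpl18 (−0.48) and Mrps7 (−0.41). These counts rested on single arrays. The lower calls fell to 1 without Otx2-/- PGCLC replicate 2, fell to 2 without replicate 1 or 3 of the cells without cytokines, and rose to 7 without Otx2-/- PGCLC replicate 3. The higher call was lost without Otx2-/- PGCLC replicate 3 or without replicate 1 of the cells without cytokines.

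Between the Otx2-/- and WT lines the members were called higher about as often as all genes, and lower less often. In EpiLC 6 members were higher in Otx2-/- than in WT cells and 1 was lower, against 8.22% and 10.5% of all tested genes. The largest difference was that of Mrps25, which has no bacterial counterpart. It read 8.16, 8.03 and 7.31 in WT EpiLC and 8.71, 8.62 and 8.67 in Otx2-/- EpiLC, with WT replicate 3 the lowest array, and the difference was 0.83 ± 0.18 (adjusted p = 0.00192). In PGCLC 7 members were higher in Otx2-/- than in WT cells and 5 lower, with 8.94% and 12.4% over all tested genes and a member median of 0.10. These counts rested on single arrays too. In EpiLC the higher calls fell from 6 to 2 without WT replicate 1 and to 3 without WT replicate 3 or Otx2-/- replicate 2, and the lower call was lost without WT replicate 1 or Otx2-/- replicate 3. In PGCLC the higher calls fell from 7 to 0 without WT replicate 2 and to 3, 2 and 4 without WT replicate 3, Otx2-/- replicate 2 and Otx2-/- replicate 3. The lower calls fell from 5 to 0 without WT replicate 1 and to 2 without any 1 of the 3 Otx2-/- arrays.

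The difference between the inductions of these 2 lines was tested in itself. Of the 73 members 3 had a more positive change in the Otx2-/- line and 3 a more negative one, against 7.97% and 8.45% of all tested genes. The more negative ones were Mrpl49 (−0.99 ± 0.20, adjusted p = 0.0011), Mrps11 (−0.92 ± 0.26, adjusted p = 0.0188) and Mrpl27 (−0.67 ± 0.21, adjusted p = 0.0334). For Mrpl49 this is the difference of the probe used, at 0.63 in WT and −0.36 in Otx2-/- induction. Of its 4 kept probes, 2 were called lower and 1 higher in WT induction, and all 4 lower in Otx2-/- induction. Mrps11, the counterpart of a platform protein of the small subunit, read 9.87, 9.16 and 9.37 in WT PGCLC and 8.75, 9.10 and 8.98 in Otx2-/- PGCLC. It fell by 1.00 in WT and by 1.92 in Otx2-/- cells. The more positive ones were Mrpl23 (0.89 ± 0.28, adjusted p = 0.0287), Mrpl24 (0.84 ± 0.24, adjusted p = 0.0197) and Mrpl2 (0.80 ± 0.24, adjusted p = 0.0225). Without Otx2-/- EpiLC replicate 1 the count of more positive changes was 0, without WT PGCLC replicate 1 it was 5, and without WT PGCLC replicate 2 or 3 or Otx2-/- PGCLC replicate 3 it was 1. The count of more negative changes was 1 without WT PGCLC replicate 1 or Otx2-/- PGCLC replicate 1.

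In the line without Otx2 and Blimp1 most members were not called. Between Otx2-/-; Blimp1-/- EpiLC and PGCLC 19 members were lower, 4 were higher and 50 were not called, with a median of −0.15. Over all tested genes 22.8% were lower and 20.5% higher, with a median of −0.04, so the members' share of lower calls lay near the background. The groups did not overlap for 29 members that were lower and 12 that were higher, against 27.3% and 24.6% of all tested genes. Of the 19 lower members 1 had fallen at least 2-fold. Without PGCLC replicate 3 of this line the lower calls numbered 12, and without its EpiLC replicate 1 or its PGCLC replicate 2 the higher calls numbered 2. The 57 members lower in WT had a median of −1.22 there and of −0.15 here. Of these 57, 14 were lower in the Otx2-/-; Blimp1-/- line, 3 were higher and 40 were not called. The induction of WT cells and that of the Otx2-/-; Blimp1-/- line share no arrays.

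**Figure D3:**
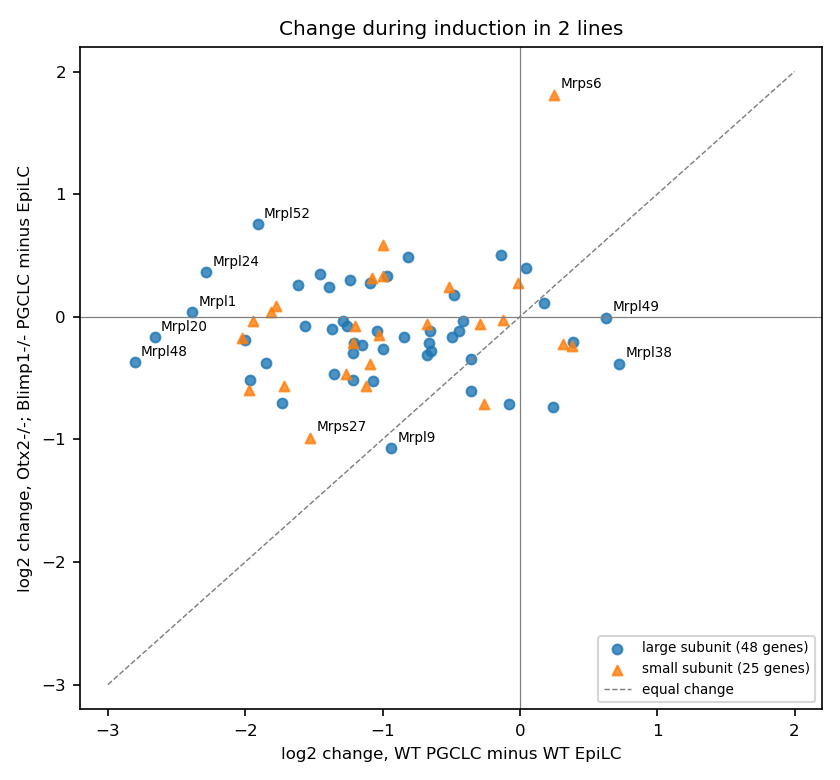
Change of each of the 73 genes in WT induction (x axis, log2) and in the induction of the Otx2-/-; Blimp1-/- line (y axis, log2), with the large subunit as circles, the small subunit as triangles and a dashed line of equal change. Most points lie left of 0 on the x axis and near 0 on the y axis. Mrps6 stands apart at 1.81 on the y axis, and Mrpl9 lies near the line of equal change.

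The member that moved most in this line was Mrps6, the counterpart of the protein that pairs with S18 in bacteria, and it rose. It read 9.09, 9.69 and 9.74 in Otx2-/-; Blimp1-/- EpiLC and 11.33, 11.45 and 11.17 in PGCLC. These PGCLC arrays lay above all 18 other arrays of the series, and the change was 1.81 ± 0.21 (adjusted p = 1.52e-07). In WT induction Mrps6 changed by 0.25 ± 0.21 (adjusted p = 0.302) and in Otx2-/- induction by −0.15 ± 0.21 (adjusted p = 0.553). Mrpl52 (0.75), Mrps21 (0.59) and Mrpl50 (0.49) also rose in the Otx2-/-; Blimp1-/- line, and these 3 are the members that fell in WT induction and rose here.

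Mrpl9 was the member that fell at least 2-fold in this line. It read 10.15, 10.07 and 10.15 in EpiLC and 9.19, 9.07 and 8.91 in PGCLC, a change of −1.07 ± 0.14 (adjusted p = 1.8e-06). In the other lines it fell by 0.94 (WT) and 1.15 (Otx2-/-). By the probe used, its means in the 4 day-6 groups lay between 9.05 and 9.13. For Mrpl9 the other kept probe was called higher in Otx2-/-; Blimp1-/- than in Otx2-/- PGCLC, at 0.38. Mrps27, which carries pentatricopeptide repeats, was the next, with −0.99 ± 0.22 (adjusted p = 0.000679). With the authors' normalized values Mrps27 changed by −0.55 and was not called (limma adjusted p = 0.379). Mrpl37 changed by −0.74 ± 0.15 (adjusted p = 0.000336), Mrps5 by −0.71 (adjusted p = 0.0049) and Mrpl45 by −0.71 (adjusted p = 0.00417). By the probes used, these 3 were called neither in WT nor in Otx2-/- induction. The other kept probe of Mrps5 was called lower in both, at −1.17 (WT) and −1.70 (Otx2-/-). That of Mrpl37 was called lower in both as well, at −0.31 and −0.41.

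Set against Otx2-/- PGCLC, the PGCLC without Otx2 and Blimp1 had more signal for most members. Of the 73 genes 53 were higher, 3 lower and 17 not called, with a median of 0.89. Over all tested genes 20% were higher and 28.3% lower, with a median of −0.07. The groups did not overlap for 59 members that were higher and 3 that were lower, against 23.7% and 33.3% of all tested genes. In 31 of the 53 the difference was at least 2-fold. Of the 56 members that fell in Otx2-/- induction 50 were higher in this comparison, which uses the same Otx2-/- PGCLC arrays. Mrps11 read 8.75, 9.10 and 8.98 in Otx2-/- PGCLC and 10.76, 11.16 and 11.04 in Otx2-/-; Blimp1-/- PGCLC. The groups were more than 1 unit apart, and the difference was 2.04 ± 0.19 (adjusted p = 1.63e-08). Mrpl20 differed by 2.05 ± 0.22 (adjusted p = 1.08e-07), Mrpl52 by 1.89 ± 0.18 (adjusted p = 2.87e-08) and Mrpl14, at the face between the subunits, by 1.85 ± 0.23 (adjusted p = 9.81e-07). The 3 lower genes were Mrpl38 (−0.92), Mrpl37 (−0.49) and Mrpl45 (−0.48), and for Mrpl38 the other kept probe was called higher, at 1.41. The other kept probe of Mrpl37 was not called, at 0.01.

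In the EpiLC of these 2 lines the members' shares of calls were near or below those of all genes. Here 6 were higher without Blimp1 and 2 lower, against 9.79% and 6.21% of all tested genes, with a median of −0.15. Mrps2 (0.91 ± 0.23, adjusted p = 0.0111) was the furthest. The 6 higher calls fell to 0 without Otx2-/-; Blimp1-/- replicate 1, to 2 without Otx2-/- replicate 3 and to 3 without Otx2-/- replicate 1 or Otx2-/-; Blimp1-/- replicate 3, and the 2 lower calls to 0 or 1 without 4 of the 6 arrays. Tested as a difference between inductions, 52 members had a more positive change in the Otx2-/-; Blimp1-/- line than in the Otx2-/- line and 4 a more negative one, against 20.1% and 28.7% of all tested genes. The median of this difference was 0.96, and it was 2.49 ± 0.31 for Mrpl20 (adjusted p = 1.15e-06) and 2.06 ± 0.20 for Mrpl48 (adjusted p = 5.96e-08).

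Several other values moved with this difference. The summed signal of the 6 measured germ cell markers lay between 11.75 and 12.07 in Otx2-/-; Blimp1-/- PGCLC, between 13.36 and 13.64 in Otx2-/- PGCLC and between 14.24 and 14.51 in WT PGCLC (log2 of the sum), and all 6 were called lower in Otx2-/-; Blimp1-/- than in Otx2-/- PGCLC. In EpiLC that sum was 9.60 to 9.78 (WT), 10.55 to 10.87 (Otx2-/-) and 10.57 to 10.68 (Otx2-/-; Blimp1-/-), with Prdm14 and Nanos3 not detected. The summed signal of the 4 EpiLC markers was 11.17 to 11.29 in Otx2-/-; Blimp1-/- PGCLC, below the 11.59 to 11.89 of Otx2-/- PGCLC. Of 5 mesoderm markers 3 had kept probes, and none of the 3 was called between these groups. The naive marker sum was 14.09 to 14.20 in Otx2-/-; Blimp1-/- PGCLC and 15.01 to 15.11 in Otx2-/- PGCLC, with 3 of 6 called lower. The trophoblast marker sum was 7.73 to 7.85 against 8.08 to 8.38, with 1 of 4 called lower and Krt18 and Gata3 not detected in either. The part of all these markers in the members' difference was not tested. Per array, the median of the 73 members was 11.17 to 11.30 in Otx2-/-; Blimp1-/- PGCLC, 10.07 to 10.35 in Otx2-/- PGCLC, 10.12 to 10.42 in WT PGCLC and 11.23 to 11.51 in all EpiLC arrays.

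**Figure D4:**
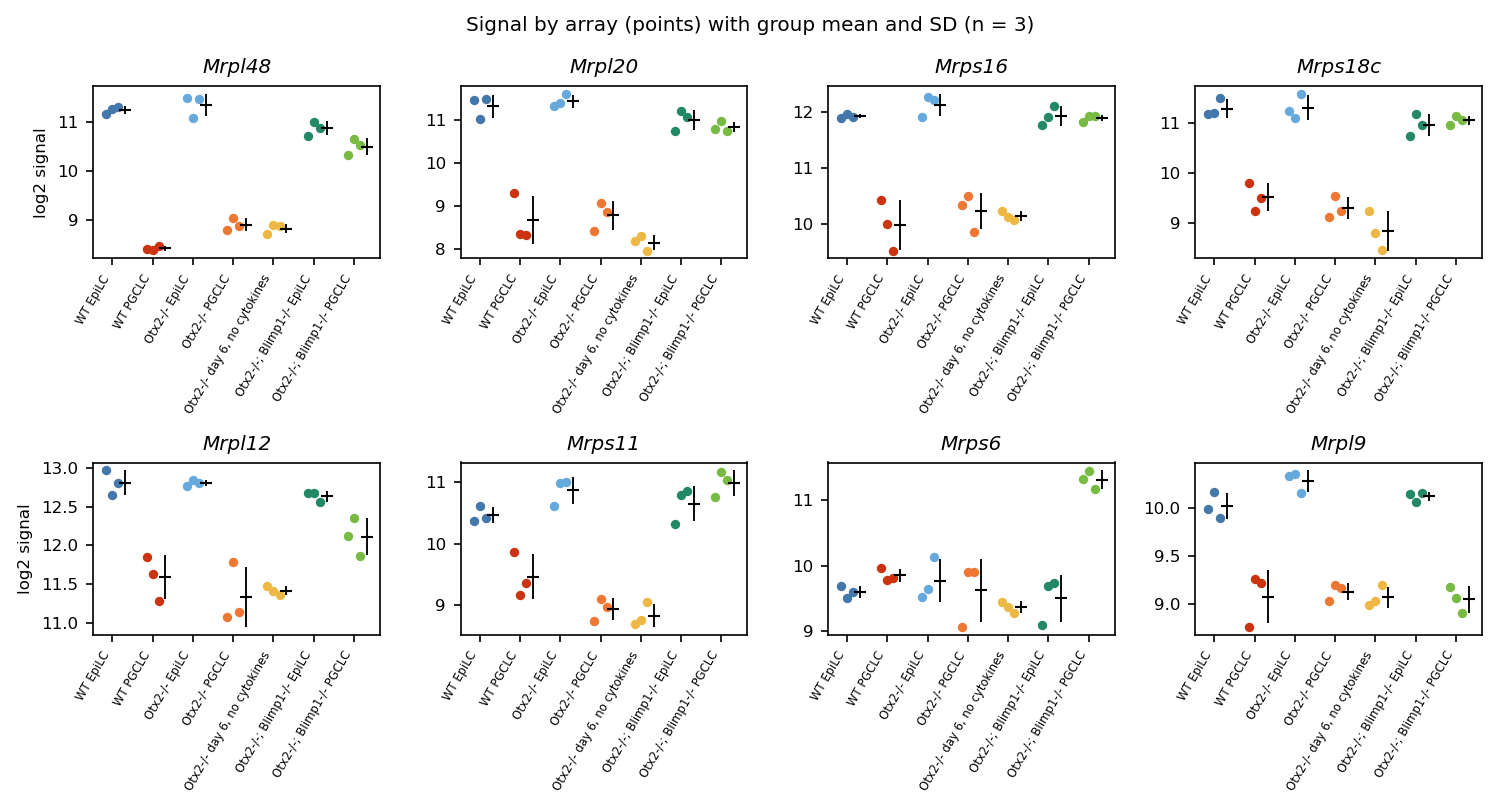
Log2 signal of 8 members (panels) on each array (points, 3 per group) with the group mean and SD beside them. In Mrpl48, Mrpl20, Mrps16, Mrps18c, Mrpl12 and Mrps11 the day-6 groups of the WT and Otx2-/- lines lie below all other groups. Mrps6 is high in Otx2-/-; Blimp1-/- PGCLC, at 11.17 to 11.45, and Mrpl9 is low in all 4 day-6 groups. Axes differ between panels.

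The members shared 1 profile over the 7 groups to differing degrees. Each member's 7 group means were set against the median of the other members, and Pearson's r was over 0.9 in 48 of 73 genes and under 0 in 6. These points share arrays and normalization, and r was not computed for genes outside the members. So r is a description, and whether such values are particular to the members was not tested. Mrpl20, Mrpl54, Mrps16 and Mrpl11 were the most alike to the rest, with r of 0.995, 0.994, 0.993 and 0.992. Mrpl38 (−0.94), Mrps18b (−0.79) and Mrps2 (−0.62) were the least alike. In 60 of the 73 genes the mean in Otx2-/-; Blimp1-/- PGCLC was above the means of the 3 other day-6 groups. This was not counted over all tested genes. After subtraction of each gene's mean, the median member stood at 0.47 in WT EpiLC, 0.60 in Otx2-/- EpiLC and 0.47 in Otx2-/-; Blimp1-/- EpiLC. At day 6 it stood at −0.57 in WT, −0.57 in Otx2-/- and 0.35 in Otx2-/-; Blimp1-/- PGCLC, and at −0.68 without cytokines.

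Genes that work with the ribosome were counted beside it, where 27.4% of all tested genes fell and 35.4% rose in WT induction. Of 25 genes for its assembly and RNA modification, 15 fell and 2 rose in WT induction, with a median of −0.52. Gtpbp10, a GTPase of large-subunit assembly, changed by −2.71 (adjusted p = 1.8e-11), and Tfb1m, which methylates the small-subunit RNA, by −1.76 (adjusted p = 4e-09). Of 14 translation factors 8 fell and 1 rose, with a median of −0.68. Mtif3, an initiation factor, changed by −2.38 (adjusted p = 4.8e-11) and Mrrf, the recycling factor, by −1.71 (adjusted p = 5.5e-09), while the elongation factor gene Tufm rose by 0.99 (adjusted p = 1.6e-05). Among 4 ribosomal proteins with other names, Ptcd3 and Chchd1 fell by 1.55 and 1.03 and Dap3 rose by 0.59. Of 17 genes for mitochondrial aminoacyl-tRNA synthesis 7 fell and 6 rose, with a median of −0.18.

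In the Otx2-/-; Blimp1-/- line these lists did not all follow the members. Over all tested genes 22.8% fell and 20.5% rose there. In that line 7 of the 14 translation factors fell and 3 rose, and Mtif3 changed by −2.02 (adjusted p = 1.5e-09). Of the assembly genes 9 fell and 1 rose. Of 71 subunits of the respiratory chain 44 fell and 8 rose in WT induction (median −0.56), while 2 fell and 24 rose in the Otx2-/-; Blimp1-/- line (median 0.23). Of 56 cytosolic ribosomal proteins 19 fell and 4 rose in WT induction, with a median of −0.09, and 0 fell (limma, with 0 at an unadjusted p under 0.05) and 6 rose in the Otx2-/-; Blimp1-/- line. Of 17 genes for keeping and reading the mitochondrial genome 10 fell and 4 rose in WT induction. Tfam, which packs mitochondrial DNA and starts its transcription, changed by −1.72 (adjusted p = 4.1e-09), and Polrmt, the mitochondrial RNA polymerase, rose by 2.16 (adjusted p = 8.2e-11).

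The genes for the factors named with the promoter motifs did not move one way. In WT induction Gabpb1, a GABP subunit, changed by −2.50 (adjusted p = 5.4e-12), Nrf1 rose by 1.35 (adjusted p = 7.5e-08), and Gabpa changed by 0.42 without passing the test (adjusted p = 0.066). Pprc1, a coactivator of these factors, rose by 1.96 (adjusted p = 3.8e-10). In the Otx2-/-; Blimp1-/- line Nrf1 changed by 0.16 (adjusted p = 0.44) and Gabpb1 by −0.40 (adjusted p = 0.0497). Yy1 had no kept probe.

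**Figure D5:**
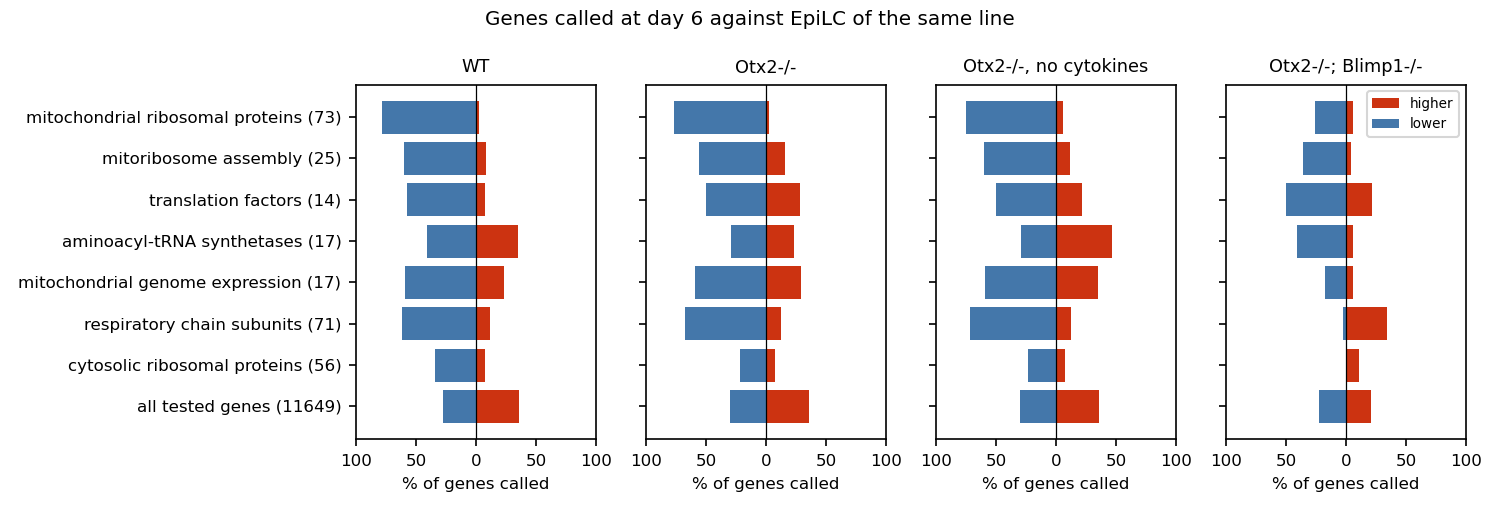
Percent of genes called lower (left of 0, blue) and higher (right of 0, red) at day 6 against EpiLC of the same line, for the 73 members, related gene lists (number of genes tested in brackets) and all 11649 tested genes, with a panel for each day-6 group. The members have the largest share of lower calls of these lists in the first 3 panels, at 57, 56 and 55 of 73, and 19 of 73 in the last.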

How the data were processed

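Signals came from 21 one-colour Illumina bead arrays of biotin-labelled cRNA made with oligo-dT. The deposited intensity table is background-subtracted and equalized between arrays, as its values show. The detection p-value of each probe, deposited per the file headers beside each signal, was taken from the authors' normalized table. Its deposited log2 values served as an alternative. Per the submitters' processing notes the authors used limma, and the version is not given in the sources used here. The intensity column of Otx2-/- PGCLC replicate 2 had a rank correlation of 0.00547 with its normalized column, and of 0.00739 and 0.00777 with the other replicates of its group, where the normalized column had 0.869 and 0.877. It was therefore re-ordered by the ranks of its normalized column, so that their later match in rank holds by construction. Detection p-values that differed between the tables fell from 42428 to 50, with ties in signal ordered by that p-value.

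Intensities were background-corrected with an offset of 16, quantile-normalized and log2-transformed with neqc in limma 3.58.1 (R 4.3.3, with version 1.17.8 of data.table). Of the 45281 probes, 21647 passed the detection filter and 18156 of these had a gene name. The probe with the highest mean over all arrays stood for a gene. One limma model (lmFit, eBayes) with 7 groups gave 9 comparisons of 2 groups and 2 of induction changes, with two-sided tests, with Benjamini-Hochberg adjustment over all 11649 genes in each and a threshold of 0.05. A call is an adjusted p under it. The median SE of a log2 change was 0.18, and arrays limit precision by their number.

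Members and lists were chosen with earlier results of these data known. Every member may be named. Values were planned for the largest called changes of each comparison, calls against the majority, calls between inductions, and the brightest and dimmest members. The last were left out, since levels of different probes cannot be compared, and the others are given in part. Members described for their role alone, such as Mrps18b, Mrpl10 and Mrps12, and context genes beyond the smallest p, were chosen after their values were seen. Alternatives were the authors' table, median scaling, an offset of 50, other detection filters, every probe by itself, a fit of only the groups compared, a replicate block, arrays left out, and, chosen after seeing the data, a correction for gene span. Tables and figures used Python 3.11.15, pandas 2.3.3, numpy 2.4.6 and matplotlib 3.10.9.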

Additional observations from a re-analysis of the deposited data

Results flagged for a closer look

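The inductions of 2 lines differed for some members, by a test of the difference itself in limma. Between the Otx2-/- and WT lines, 3 members had a more positive and 3 a more negative change, against 7.97% and 8.45% of all tested genes. By the probes used, the differences on the log2 scale were −0.99 for Mrpl49, −0.92 for Mrps11 and −0.67 for Mrpl27. They were 0.84 for Mrpl24, 0.80 for Mrpl2 and 0.89 for Mrpl23. Between the Otx2-/-; Blimp1-/- and Otx2-/- lines 52 members had a more positive and 4 a more negative change, against 20.1% and 28.7%. The 8 with the smallest p differed by 2.49 (Mrpl20), 2.25 (Mrps11), 2.11 (Mrpl52), 2.11 (Mrps18c), 2.07 (Mrps21), 2.06 (Mrpl48), 1.84 (Mrpl22) and 1.45 (Mrps22). Each genotype was 1 cell line, so the genotype and the line cannot be told apart.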

How the results depend on the processing

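The falls in WT and Otx2-/- induction kept their counts within 1.5 times under all alternatives that count genes. So did the higher signal in Otx2-/-; Blimp1-/- PGCLC. No change of a named member reversed its sign among called values, but some calls were lost. Of 87 calls followed by gene, 23 were lost with only the groups compared and 9 with the authors' values. With the latter, Mrpl45 differed by −0.017 between Otx2-/-; Blimp1-/- and Otx2-/- PGCLC (limma adjusted p = 0.329). That call was also lost with an offset of 50, with no detection filter and with the replicate block. Counted by probe (115), 91 were lower in WT induction, 92 in Otx2-/- induction, 88 without cytokines against EpiLC and 33 in Otx2-/-; Blimp1-/- induction. Calls by probe, here and below, were not counted over all kept probes, so these counts have no background beside them. By probe, 88 were higher in Otx2-/-; Blimp1-/- than in Otx2-/- PGCLC, and 85 changed more positively in that induction. Also by probe, 3 were higher without than with cytokines, 12 were higher in Otx2-/- than WT EpiLC, 8 were lower in Otx2-/-; Blimp1-/- than Otx2-/- EpiLC and 7 changed more negatively in Otx2-/- than WT induction.

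With only the groups compared, the higher calls were 1 for Otx2-/- against WT PGCLC, 1 for Otx2-/- against WT EpiLC and 1 for the difference between their inductions. With that fit the calls were 0 higher and 0 lower for Otx2-/-; Blimp1-/- against Otx2-/- EpiLC, where it called 18 higher and 18 lower of all 11649 genes, and 7 were lower without than with cytokines. With an offset of 50, 7 were higher in Otx2-/-; Blimp1-/- induction and 7 lower without than with cytokines. That last count was 8 with probes detected on all arrays. The authors' table gave 4 lower calls for Otx2-/-; Blimp1-/- against Otx2-/- EpiLC and 5 more positive changes in Otx2-/- than WT induction. For Otx2-/- against WT PGCLC the lower calls were 3 with no detection filter and 2 with the gene span correction, which was chosen after seeing the data. That correction gave 6 higher calls in Otx2-/- induction and 7 without cytokines against EpiLC. The causes were not tested. Replicates of the same number deviated from their group means with a median correlation of 0.02 (63 pairs of arrays, from −0.19 to 0.32). Arrays of different number and group had a median of −0.006 (126 pairs, from −0.28 to 0.22). The labels do not say what replicates of the same number share. These values cannot decide it, since a correlation over all tested genes can miss an effect on part of them. With the replicate block, the lower calls were 57 in WT and 57 in Otx2-/- induction, and no count moved by over 1.5 times.

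With 1 array left out, the lower calls ran from 54 to 56 in WT induction, 52 to 57 in Otx2-/- induction, 54 to 57 without cytokines against EpiLC and 12 to 17 in Otx2-/-; Blimp1-/- induction, and the higher calls from 2 to 3, 2 to 3, 2 to 5 and 2 to 6. For Otx2-/-; Blimp1-/- against Otx2-/- PGCLC they ran from 52 to 55 higher and 2 to 3 lower, and for the difference of those inductions from 49 to 52 and 4 to 5. For Otx2-/- against WT they ran from 0 to 10 higher and 0 to 4 lower in PGCLC, 2 to 5 and 0 to 1 in EpiLC, and 0 to 5 and 1 to 3 between inductions. Without against with cytokines they ran from 0 to 1 higher and 1 to 7 lower, and for Otx2-/-; Blimp1-/- against Otx2-/- EpiLC from 0 to 5 and 0 to 2.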
